A study of Mus musculus with 12 samples.

Results

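Pparg and 5 lipid uptake genes known as its targets, Cd36, Mogat1, Vldlr, Fabp4 and Lpl, were followed in hepatocytes of steatotic mouse livers. They were picked out of the table by gene symbol, with no threshold on their values, and are 6 of the 52636 genes of the deposited table. RNA sequencing libraries came from 3 wild-type (WT) mice and 3 mice that are Ptprk knockouts (KO); Ptprk encodes the receptor-type protein tyrosine phosphatase kappa. From the liver of each mouse came 2 hepatocyte fractions that differ in lipid content, low-fat and high-fat, prepared with a Percoll gradient and differential centrifugation meant to remove dead and non-parenchymal cells. The 12 libraries thus form 4 groups of 3, 1 for each pairing of genotype and fraction. The labels used here name no strain, age, sex, diet or kind of knockout allele, and the fat content of a fraction is given only as low or high. Levels are given as reads per 20 M (mega), the scale to which the authors brought every library.

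PPARγ, the protein of Pparg, is a nuclear receptor that binds DNA as a partner of RXR and switches on genes of fat uptake and storage. It is the master regulator of fat cells, is scarce in the normal liver and is known to increase in fatty liver. Cd36 encodes a fatty acid translocase of the cell surface, Lpl the lipase that frees fatty acids from circulating triglyceride, and Vldlr a receptor for triglyceride-rich lipoproteins. Fabp4 encodes a fatty acid carrier of the cytosol that is typical of adipocytes, macrophages and capillary endothelium. Mogat1 encodes monoacylglycerol acyltransferase 1, which rebuilds diacylglycerol on the way to triglyceride. Several of these genes are also active outside hepatocytes, Lpl and Cd36 in macrophages and Cd36 and Vldlr in endothelium.

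PPARγ and RXR bind direct repeats of a hexamer with 1 base between them, called DR1 elements, so the promoters of the group were searched for the motif AGGTCANAGGTCA on both strands. RefSeq promoter windows (build GRCm38.p6), searched over the 250 bases before the start, were matched for 4 of the 6 genes, as 7 promoters: 1 of Mogat1, 1 of Cd36, 3 of Pparg and 2 of Vldlr. The closest stretches are shown for Mogat1 and Cd36, which had the fewest mismatches, and for the first Pparg promoter, whose best match holds a whole half-site, with the 13 bases of the best match in capitals. Each line gives the strand of the gene 5′ to 3′.
Mogat1, chr1:78510989-78511041, plus strand: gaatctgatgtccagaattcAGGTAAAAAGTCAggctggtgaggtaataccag
Cd36, chr5:17835927-17835979, minus strand: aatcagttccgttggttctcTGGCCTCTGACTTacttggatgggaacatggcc
Pparg, chr6:115361089-115361141, plus strand: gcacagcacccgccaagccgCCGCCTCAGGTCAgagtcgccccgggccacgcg
The stretches of Mogat1 and Cd36 had 2 mismatches to the motif, the one of Cd36 on the opposite strand. Of 32851 promoters in the RefSeq table, 3.24% held a match with at most 2 mismatches. The Pparg stretch had 4 mismatches, which 74.5% of all promoters reached, and ends in the half-site AGGTCA, which 14.0% of all promoters held on either strand. The second Pparg promoter and that of Cd36 each held 1 such half-site too, outside the best match. These matches describe the sequence alone, since binding was not measured here.

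All 6 genes were at a higher level in the high-fat library of all 6 mice. The 36 comparisons within a mouse, 6 genes in 6 mice, thus all had the same direction. For a gene higher in 6 of 6 mice the background was 9.96% of the 16563 genes tested, and 11.6% were lower in 6 of 6 mice. This background was counted on values rescaled between libraries, while ratios within a mouse are of deposited values. On the rescaled values all 36 comparisons kept their direction, with a smallest log2 difference of 0.05. The smallest ratio was that of Vldlr in WT replicate 3, at 1.12 times, and the largest that of Fabp4 in WT replicate 1, at 7.88 times. The high-fat libraries of WT replicate 1 and KO replicate 1 stood apart in Kupffer and endothelial cell markers, and the results without these mice are given with the marker values.

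**Figure D1:**
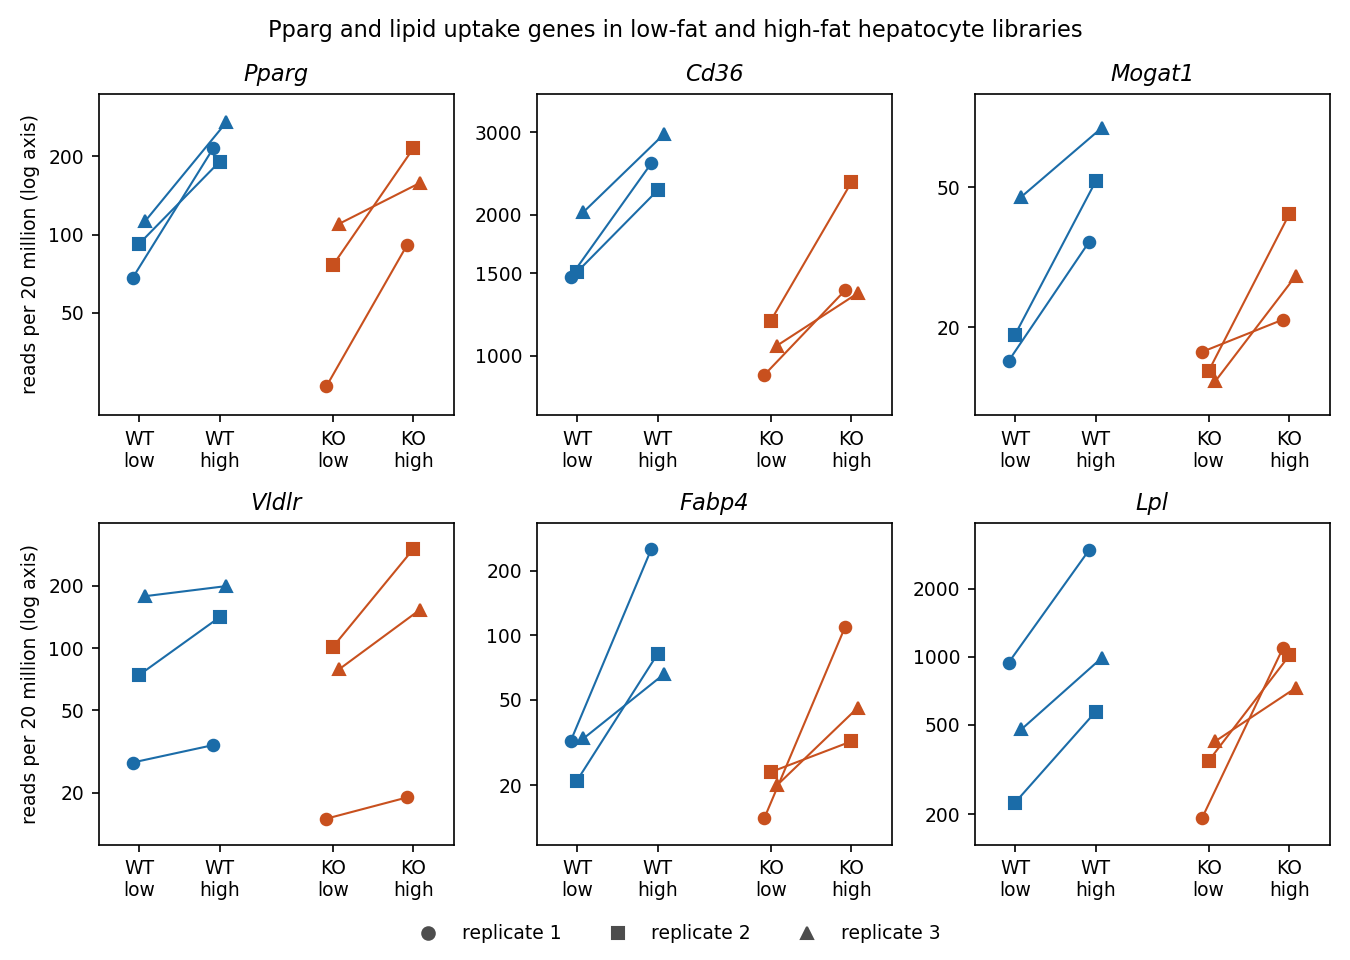
Level of each gene in reads per 20 M (log axis) in both libraries of each mouse, low-fat to the left, joined by a line, with WT in blue and KO in orange and the replicate shown by the marker. All 36 lines go up from low-fat to high-fat, and the replicate 1 mice of both genotypes have the lowest Vldlr levels.

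Pparg, the receptor itself (ENSMUSG00000000440), was measured at 68, 92 and 113 reads per 20 M in WT low-fat replicates 1 to 3, and at 215, 191 and 270 in the high-fat libraries of the same mice. In KO mice it was at 26, 76 and 110 in low-fat and at 91, 215 and 158 in high-fat libraries. The WT fractions did not overlap, while the KO fractions did, because KO replicate 3 was already at 110 in its low-fat library. Within a mouse the high-fat level was 1.44 to 3.5 times the low-fat level, with a median of 2.61. With a term for each mouse, Pparg rose by a log2 fold change of 1.22 (SE 0.15; adjusted p in limma = 0.0045), and an exact sign-flip test over the 6 mice gave p = 0.03125 (two-sided). That is the smallest p 6 mice can give, and each of the other 5 genes reached it too. An annotated gene on the opposite strand, Gm44079, overlaps Pparg and reached at most 4 reads per 20 M. Strandedness of the libraries is not given in the sources used here, so reads of such a pair cannot be told apart.

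Cd36, the fatty acid translocase (ENSMUSG00000002944), had the highest mean level of the 6 genes in each of the 4 groups, also per exon length. In WT high-fat replicate 1, Lpl was above it in reads per 20 M, at 2976 against 2576. The Cd36 levels were 1475, 1509 and 2027 reads per 20 M in WT low-fat and 2576, 2257 and 2977 in WT high-fat replicates 1 to 3. In KO mice they were 909, 1187 and 1051 in low-fat and 1378, 2347 and 1360 in high-fat libraries. The fractions did not overlap in either genotype. The ratio within a mouse was the most even of the 6 genes, at 1.29 to 1.98 with a median of 1.51, and the log2 fold change was 0.59 (SE 0.081; adjusted p in limma = 0.0059).

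Lpl, the triglyceride lipase (ENSMUSG00000015568), was at 939, 225 and 476 reads per 20 M in WT low-fat and at 2976, 570 and 991 in WT high-fat replicates 1 to 3. In KO mice it was at 193, 345 and 421 in low-fat and at 1091, 1013 and 727 in high-fat libraries. WT replicate 1 was the highest library of its group in both fractions, and its low-fat level was above the high-fat level of WT replicate 2. The WT fractions therefore overlapped, while the KO fractions did not. Lpl rose in high-fat libraries by a log2 fold change of 1.42 (SE 0.17; adjusted p in limma = 0.0043), with ratios within a mouse between 1.73 and 5.65.

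Vldlr, the lipoprotein receptor (ENSMUSG00000024924), varied more between mice than between fractions. In replicates 1 to 3 it was at 28, 74 and 178 reads per 20 M in WT low-fat, 34, 141 and 199 in WT high-fat, 15, 101 and 79 in KO low-fat and 19, 301 and 153 in KO high-fat libraries. The replicate 1 mouse was the lowest of its group in all 4 groups, and the highest library of a group was 5.85 to 15.8 times the lowest. The fractions overlapped in both genotypes. The ratio within a mouse ran from 1.12 to 2.98, and the log2 fold change of 0.64 (SE 0.20) did not pass the test (limma adjusted p = 0.078).

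Fabp4, the fatty acid carrier (ENSMUSG00000062515), was low in every low-fat library, at 32, 21 and 33 reads per 20 M in WT and 14, 23 and 20 in KO replicates 1 to 3. Its high-fat levels were 252, 82 and 66 in WT and 109, 32 and 46 in KO. The fractions did not overlap in either genotype, and replicate 1 was the highest high-fat library of both. Fabp4 had the largest log2 fold change of the group, 1.63 (SE 0.33; adjusted p in limma = 0.020), and the widest ratios within a mouse, 1.39 to 7.88.

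Mogat1, the acyltransferase (ENSMUSG00000012187), was at 16, 19 and 47 reads per 20 M in WT low-fat and 35, 52 and 74 in WT high-fat replicates 1 to 3. In KO mice it was at 17, 15 and 14 in low-fat and at 21, 42 and 28 in high-fat libraries. The fractions overlapped in WT, through the low-fat level of replicate 3, and did not in KO. Mogat1 rose by a log2 fold change of 0.88 (SE 0.21; adjusted p in limma = 0.038), with ratios within a mouse between 1.24 and 2.8. It too has an overlapping gene on the opposite strand, BC035947, which ran from 1 to 19 reads per 20 M, against 14 to 74 for Mogat1.

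Over the 6 mice, 5 of the 6 genes thus passed the test as higher in high-fat libraries, where 6.76% of all genes tested did and 4.23% passed as lower. The median log2 fold change of the 6 genes was 1.05, against -0.02 over all genes tested. The call of Pparg, Cd36 and Lpl held with any 1 mouse left out. Mogat1 was called only without KO replicate 1 among these repeats (adjusted p between 0.01365 and 0.1357), and Fabp4 lost its call without WT replicate 1, WT replicate 2 or KO replicate 3. In a fit without the term for each mouse, Cd36 and Fabp4 passed, and Pparg (adjusted p = 0.052), Lpl (0.076), Mogat1 (0.13) and Vldlr (0.72) did not.

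The rise was next taken in each genotype alone, in the same fit. In KO mice Pparg rose by a log2 fold change of 1.19 (limma adjusted p = 0.041), Cd36 by 0.60 (0.0497) and Lpl by 1.55 (0.034). Mogat1 (0.80), Vldlr (0.88) and Fabp4 (1.40) had positive log2 fold changes with adjusted p-values of 0.263, 0.178 and 0.196. These 3 of 6 calls stand beside 1.7% of all genes called and 1.31% called higher. In WT mice no gene of the table was called by limma (0.0% of genes, with 3209 genes at an unadjusted p under 0.05), so the 6 genes were not called either. The WT log2 fold changes were 1.25 for Pparg (adjusted p = 0.055), 0.59 for Cd36 (0.062), 1.30 for Lpl (0.059), 1.86 for Fabp4 (0.102), 0.96 for Mogat1 (0.159) and 0.39 for Vldlr (0.460). Of the 6 genes, 5 had an unadjusted p under 0.05 in WT and 6 in KO, where 2456 of the 16563 genes did. Cd36, the call nearest to the threshold, was at adjusted p-values of 0.0523 and 0.0525 with the other pseudocounts and at 0.0802 with no filter. The counts moved with the libraries in the fit: without KO replicate 1, Pparg, Cd36, Lpl and Fabp4 passed in WT, and without KO replicate 2, Pparg and Cd36. Pparg and Cd36 lost the KO call with any 1 of the 6 mice left out, Lpl lost it without WT replicate 2 or 3 or KO replicate 2 or 3, and without the term for each mouse none of the 3 passed (adjusted p = 0.3867, 0.3217 and 0.3638).

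Without overlap between fractions were 3 of the 6 genes in WT (Pparg, Cd36 and Fabp4), against 10.4% of all genes, and 4 in KO (Cd36, Mogat1, Fabp4 and Lpl), against 8.54%. The difference between genotypes in the size of the rise was tested as an interaction. Its log2 estimate lay between -0.45 for Fabp4 and 0.49 for Vldlr, with KO minus WT as the direction, and every adjusted p from limma was 1. No gene of the table was called in the interaction (0.0%), and 66 had an unadjusted p under 0.05, none of the 6 among them. An exact permutation test of the within-mouse differences, 3 mice against 3, gave p between 0.4 and 1 for the 6 genes and cannot go below 0.1.

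Lower levels in KO mice were common in the group but did not pass the test. On simulated data this test recovered 7.5% (low-fat) and 13.4% (high-fat) of genes changed by a log2 of 0.5. At a log2 change of 1 it recovered 50.7% and 53.7%, so changes of these sizes were often missed in the simulation. It held 67 changed genes of each size, drawn from all genes tested, while the data gave 1 call in each fraction. These shares therefore do not give the power for the 6 genes. In low-fat libraries the KO mean was 77.7% of the WT mean for Pparg, 62.8% for Cd36, 56.1% for Mogat1, 69.6% for Vldlr, 66.3% for Fabp4 and 58.5% for Lpl. In high-fat libraries it was 68.7% for Pparg, 65.1% for Cd36, 56.5% for Mogat1, 126% for Vldlr, 46.8% for Fabp4 and 62.4% for Lpl. Leaving out 1 library took the log2 fold change of Mogat1 in low-fat libraries from -0.61 to -0.13 (without WT replicate 3) and that of Lpl from -0.61 to -0.10 (without WT replicate 1). In high-fat libraries Fabp4 went from -1.0 to -0.43 without WT replicate 1, and Pparg from -0.60 to -0.23 without KO replicate 1. None of the 6 genes was called by limma in either fraction, where 0.00604% of the genes tested, Ptprk alone, was called. In high-fat libraries even that call was lost with only the libraries compared (adjusted p = 0.402), without WT replicate 3 (0.052) or without KO replicate 2 (0.0528). At an unadjusted p under 0.05 there were 285 genes in low-fat and 334 in high-fat libraries, and in both Cd36 was the only one of the 6 genes.

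Cd36 came nearest to a difference. Its KO low-fat libraries, at 1049 ± 139 reads per 20 M (SD, n = 3), did not overlap the WT low-fat libraries, at 1670 ± 309 (SD, n = 3), a pattern that 2.97% of all genes shared with KO lower. The log2 fold change was -0.66 (SE 0.22, unadjusted limma p = 0.0108, adjusted p = 1), and the exact permutation test gave p = 0.1, the smallest that 3 against 3 can give. In high-fat libraries Cd36 was at 1695 ± 565 in KO and 2603 ± 361 in WT (SD, n = 3), with overlap through KO replicate 2. The log2 fold change there was -0.65 (unadjusted limma p = 0.0112, adjusted p = 1), and the exact permutation test gave p = 0.2.

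The other 5 genes overlapped between genotypes in both fractions, and in high-fat libraries none of the 6 had all KO values below WT, where 2.49% of all genes did. In low-fat libraries Pparg was at 91 ± 22.5 in WT and 70.67 ± 42.3 in KO, and at 225.3 ± 40.5 and 154.7 ± 62.1 in high-fat libraries (SD, n = 3 each). The lowest Pparg library was KO low-fat replicate 1, at 26, and without it the log2 fold change in low-fat libraries went from -0.54 to 0.03. Set beside the WT mouse of the same replicate number, Pparg was lower in KO in 3 of 3 low-fat pairs, at 26 against 68, 76 against 92 and 110 against 113. In high-fat libraries replicate 2 went the other way, at 215 in KO against 191 in WT. For Cd36 any pairing of the low-fat libraries gives 3 of 3, since the genotypes did not overlap there. The share of all genes with such a pattern was not counted, and the labels link KO and WT mice by no more than the number. Without pairing, the exact permutation test gave p = 0.6 for Pparg in low-fat libraries. With a term for each replicate number, Pparg in low-fat libraries had an unadjusted limma p of 0.111 and an adjusted p of 1. Vldlr had a log2 fold change of -0.51 in low-fat libraries and of -0.02 in high-fat libraries, where the KO mean was the higher one. The sign of Vldlr turned with the pseudocount, the filter and single libraries, and that of Lpl in high-fat libraries (-0.35) turned to 0.29 without WT replicate 1.

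**Figure D2:**
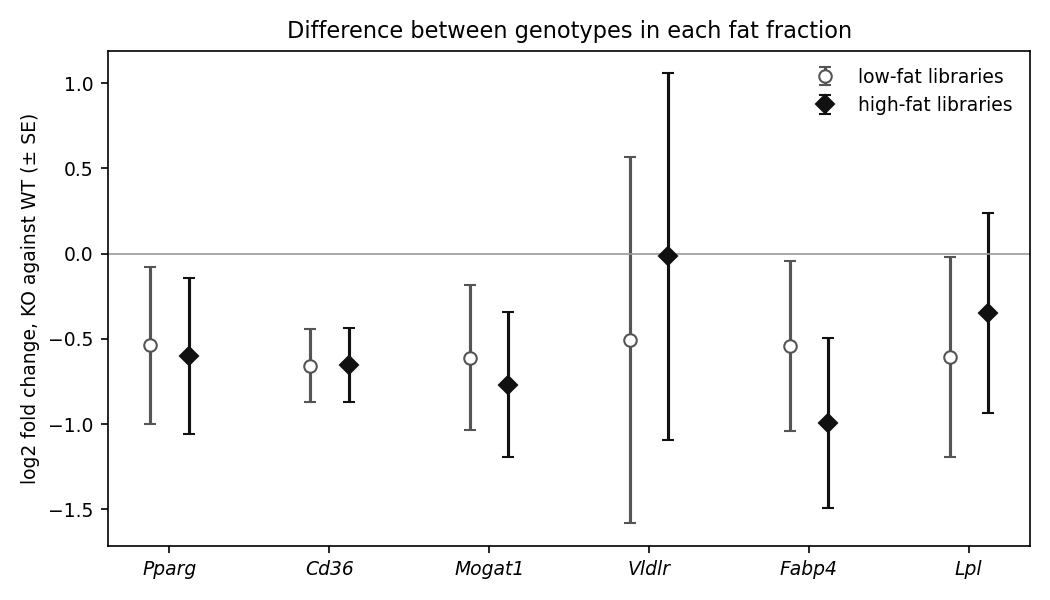
Log2 fold change of KO against WT (y axis) for each of the 6 genes in low-fat (open circles) and high-fat libraries (filled diamonds), with bars of 1 standard error on each side from the limma fit. All 12 estimates lie below 0, from -1.0 for Fabp4 to -0.02 for Vldlr in high-fat libraries, and none passed the test.

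All 6 estimates were below 0 in both fractions, where 51.2% of all genes were in low-fat and 53.4% in high-fat libraries, and 35.9% in both. The fractions come from the same mice, so the second is no repeat of the first. The median log2 fold change of the 6 genes was -0.57 in low-fat and -0.63 in high-fat libraries. Ordered by group mean, 5 genes followed the same sequence, from KO low-fat through WT low-fat and KO high-fat to WT high-fat. For Vldlr the high-fat groups changed places. Neighbours in this order overlapped for every gene except Cd36 between KO low-fat and WT low-fat libraries.

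Compared per length, as reads per 20 M and per kb of annotated exon, the group spanned a wide range of levels. The length is the union of all annotated exons, 4.489 kb for Fabp4, 10.068 kb for Vldlr, 10.478 kb for Lpl and 1.558 kb for Mogat1. Such a union can be longer than the transcript present, which would understate the level per kb. The order below, the low place of Fabp4 included, therefore depends on the length used. In WT low-fat libraries the mean level per kb was 465 for Cd36, 52.2 for Lpl, 30.8 for Pparg, 17.5 for Mogat1, 9.27 for Vldlr and 6.39 for Fabp4. In WT high-fat libraries it was 725 for Cd36, 144 for Lpl, 76.3 for Pparg, 34.4 for Mogat1, 29.7 for Fabp4 and 12.4 for Vldlr. In each of the 4 groups the lowest Cd36 level per kb was above the highest of the other 5 genes, as in WT high-fat libraries, with 629 for Cd36 against 284 for Lpl. The order from Lpl to Pparg did not exceed the spread in WT low-fat libraries, where Lpl ran from 21.5 to 89.6 and Pparg from 23 to 38.3 per kb. Mogat1, between 10.3 and 30.2, Vldlr, between 2.78 and 17.7, and Fabp4, between 4.68 and 7.35, likewise overlapped their neighbours there.

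Estimated depth was 15.1 to 25 M reads per library, so that 3 reads correspond to 2.4 to 3.98 reads per 20 M, a floor for counting error only, and every value of the 6 genes lay above it. Ptprk, the targeted gene, was at 2788 ± 83.7 reads per 20 M in the low-fat libraries of WT and 1271 ± 135 in those of KO mice, and at 2407 ± 209 and 1200 ± 19.3 in high-fat libraries (SD, n = 3 each). Its KO level was thus 45.6% and 49.9% of WT, with no overlap. Which exons the knockout removes is not given in the sources used here. The 8 hepatocyte markers, with Alb the most abundant, summed to between 559894 and 637360 in all 12 libraries. Between fractions 1 of the 8 was called higher and 1 lower, against 6.76% and 4.23% of all genes, which the sum does not show.

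Markers of other liver cell types moved with the fat fraction. All 9 sinusoidal endothelial markers, with Stab2 the most abundant, rose, as did all 9 Kupffer cell markers, led by Cd5l, and all 8 stellate cell markers, led by Reln. Of these, Marco among Kupffer markers and Col1a1 and Des among stellate markers passed the filter on low values only through their high-fat libraries, so their call is no support. The endothelial sum was 2598 to 2700 in WT low-fat and 5531 to 14030 in WT high-fat libraries, and 1182 to 2231 and 4449 to 9045 in KO. The Kupffer sum was 522 to 1090 and 1982 to 10375 in WT, and 321 to 534 and 1851 to 8940 in KO. Stellate markers summed to 272 to 695 and 2141 to 3632 in WT, and 145 to 636 and 2455 to 2927 in KO. Their part in the levels of the 6 genes was not tested.

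The mice with the largest endothelial and Kupffer ratios also had the largest ratios of Pparg, Fabp4 and Lpl. The Kupffer sum was 12.2 times higher in the high-fat than in the low-fat library of WT replicate 1 and 27.9 times higher in KO replicate 1, against 1.93 to 4.02 times in the other 4 mice. The Fabp4 ratio was 7.88 and 7.79 in these 2 mice and 1.39 to 3.9 in the others. The Lpl ratio of 5.65 in KO replicate 1 was the largest of the 6, and that of WT replicate 1 was 3.17. The Pparg ratio was 3.16 in WT replicate 1 and 3.5 in KO replicate 1, against at most 2.83 in the others. For Mogat1 the ratio of KO replicate 1, at 1.24, was the lowest of the 6 mice. For Vldlr both mice, at 1.21 and 1.27, lay below all others except WT replicate 3.

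**Figure D3:**
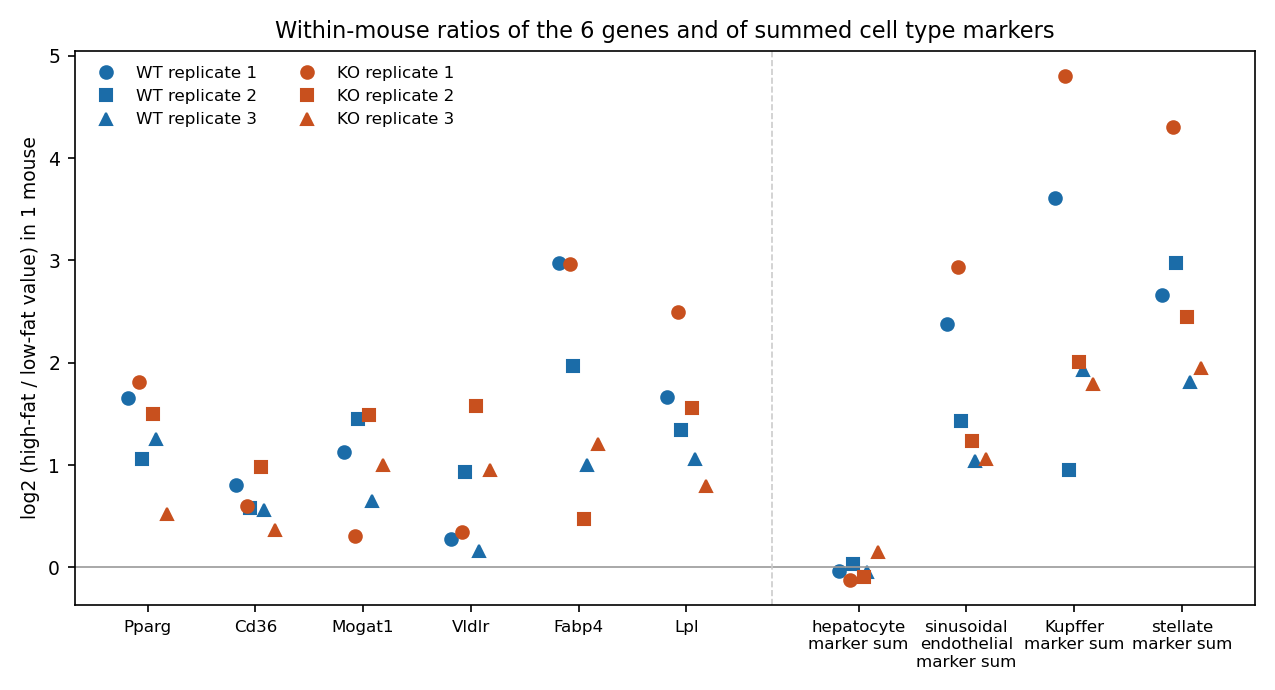
Log2 of the high-fat over low-fat ratio (y axis) of the 6 genes and of 4 marker sums in each of the 6 mice, WT in blue and KO in orange. Before the log2 the Kupffer ratio is 27.9 in KO replicate 1 and 12.2 in WT replicate 1, while the hepatocyte ratio stays between 0.917 and 1.11.

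Without these 2 mice, a repeat chosen after the data were seen, all 6 genes were called in the comparison over the remaining mice, where 1237 of the 16563 genes were called, 839 of them higher. The log2 fold changes were 1.05 for Pparg, 0.61 for Cd36, 1.05 for Mogat1, 0.88 for Vldlr (limma adjusted p = 0.0146), 1.08 for Fabp4 (0.026) and 1.17 for Lpl. Fabp4 thus had 1.08 in place of 1.63. In WT alone Pparg and Lpl were then called, among 406 genes called, and in KO alone Cd36, Vldlr and Lpl, among 395. In bulk libraries a change in the share of cells of a type and a change of RNA per cell cannot be told apart. Between genotypes, the endothelial sums of low-fat libraries did not overlap and were lower in KO, and their part in the lower levels of the 6 genes was not tested.

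Fabp4 is typical of fat cells, and adipocyte markers were near 0. Lep was at 0 in all 12 libraries, Plin1 in 11, Adipoq in 10 and Retn in 10, and none of these 4 exceeded 3 reads per 20 M. The adipocyte sum, 10 to 165 in low-fat and 24 to 433 in high-fat libraries, consisted almost wholly of Cfd, which ran from 10 to 432 and rose. The sum of 5 lipid-associated macrophage markers, led by Cd9, was 0.84 to 1.08 times as high in high-fat libraries. Cd9 and Spp1, with means of 269 and 164 reads per 20 M, carried that sum, against 6.67 for Trem2, 10.3 for Gpnmb and 15.2 for Itgax. The median log2 fold change of the 4 tested was 0.47, against the direction of the sum in 5 of 6 mice, and none was called. Of these, Gpnmb and Itgax had positive changes but passed the filter on low values only through their high-fat libraries. That median is therefore no support, and Spp1 and Cd9 were not higher. The 4 cholangiocyte markers, led by Sox9, which fell, summed to 132 to 385 with ratios of 0.656 to 0.772. That sum consisted almost wholly of Sox9, at 126 to 381, and the others reached at most 7 and were not tested. The 4 lymphocyte markers, led by Cd3e, never summed to more than 65.

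The wider pathway was described with 75 genes in 6 lists, 74 of them in the table and 68 tested. Over the 6 mice 10 were called higher in high-fat libraries, 1 of them (Fabp7) tested only because of its high-fat levels, 6 lower and 52 not at all, against 6.76% and 4.23% of all genes. In KO mice Gpihbp1 alone was called, and none was in WT mice, between genotypes or in the interaction.

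**Figure D4:**
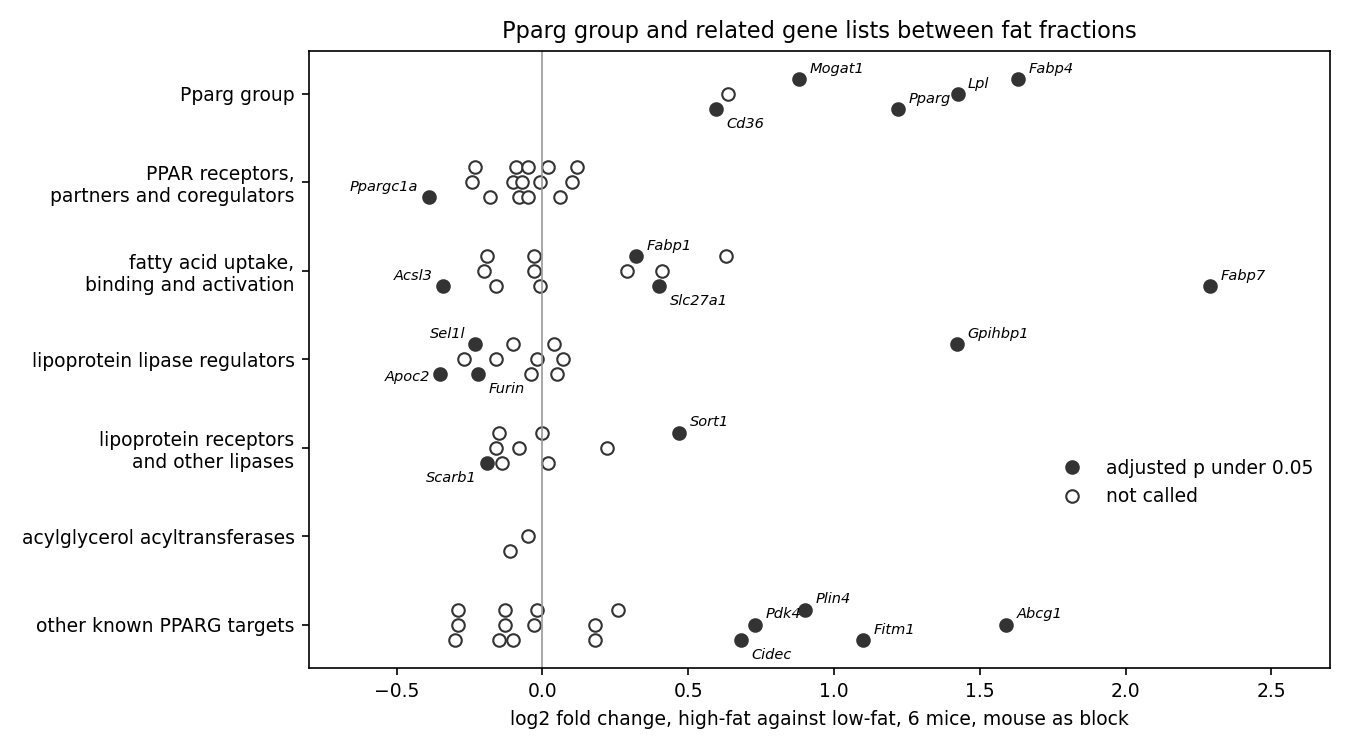
Log2 fold change between fractions, high-fat over low-fat, in the 6 mice (x axis) for the Pparg group and 6 related lists, 1 point a gene, filled and named where limma's adjusted p was under 0.05. Pparg, Cd36, Mogat1, Fabp4 and Lpl lie to the right of 0, and the related lists lie on both sides of it; Fabp7 was tested only because of its high-fat levels.

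Of 15 PPAR receptors, partners and coregulators beside Pparg, none was called higher and 1 was called lower, against 6.76% and 4.23% of all genes. Rxra, its DNA-binding partner, had a log2 fold change of -0.18 (limma adjusted p = 0.089), Ppara, the receptor of fat burning, 0.06 (0.391) and Ppard, the third family member, -0.09 (0.505). Whether Pparg differs from each of them was not tested. The gene called was Ppargc1a, a coactivator of oxidative metabolism, which fell by 0.39 (0.0122), from 417.3 ± 120 to 331.3 ± 82.7 reads per 20 M in WT and from 479.3 ± 48.9 to 377.3 ± 43 in KO (SD, n = 3 each). The median of the list was -0.07.

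Lpl is regulated by partners in plasma and on the vessel wall, and by factors of its export and cleavage. Of 12 such genes 1 was called higher and 3 lower, against 6.76% and 4.23% of all genes tested. Gpihbp1, which carries the lipase across capillary endothelium, rose by a log2 fold change of 1.42 (limma adjusted p = 0.00469) and was also called in KO mice (0.035). Its levels were 98 ± 30.5 and 279 ± 170 reads per 20 M in WT low-fat and high-fat libraries, and 54.33 ± 5.69 and 172 ± 64.2 in KO (SD, n = 3 each). Apoc2, the activating apolipoprotein of the lipase, fell by 0.35 (0.0313), Sel1l, a factor of its export, by 0.23 (0.0184) and Furin, a protease that cuts it, by 0.22 (0.034). Angptl4, an inhibitor and itself a known PPAR target, was at 0.07 (0.498). Gpihbp1 is an endothelial gene, and the part of the higher endothelial sums in its rise was not tested.

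Of 13 genes of fatty acid uptake, binding and activation, 2 rose and 1 fell, leaving aside Fabp7, against 6.76% and 4.23% of all genes. Slc27a1, a fatty acid transporter, rose by a log2 fold change of 0.40 (limma adjusted p = 0.0271), and Fabp1, the main fatty acid carrier of hepatocytes, by 0.32 (0.0466). The group means of Fabp1 lay between 7449 and 9780 reads per 20 M. Fabp7, a carrier typical of the brain, reached the minimum of the filter in 6 high-fat and 0 low-fat libraries, so its call is no support. Its levels were 7.333 ± 2.08 in low-fat and 37.67 ± 36.7 in high-fat libraries of WT, and 3 ± 2.65 and 39 ± 33.9 in those of KO mice (SD, n = 3 each). Acsl3, an enzyme that activates fatty acids, fell by 0.34 (0.0167), and Fabp5, a relative of Fabp4, had 0.41 (0.11).

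Beside Vldlr, 9 lipoprotein receptors and other lipases were tested, of which 1 rose and 1 fell, against 6.76% and 4.23% of all genes. Sort1, a sorting receptor, rose by a log2 fold change of 0.47 (limma adjusted p = 0.0153) and Scarb1, the HDL receptor, fell by 0.19 (0.0364). Beside Mogat1, its relative Mogat2 was too low to test, with group means between 2.667 and 4.667 reads per 20 M. Dgat2, which makes triglyceride from diacylglycerol, had -0.11 (0.341).

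Of 17 other known PPARG targets tested, 5 rose and none fell, against 6.76% and 4.23% of all genes tested. The list was chosen with earlier results of these data known. The largest rises were those of Abcg1, a cholesterol exporter also abundant in macrophages, at a log2 fold change of 1.59 (limma adjusted p = 0.0359), Fitm1, a lipid droplet gene, at 1.10 (0.0151) and Plin4, a lipid droplet coat gene, at 0.90 (0.0229). Cidec, which fuses droplets, and Pdk4, a brake on glucose oxidation, rose by 0.68 (0.0134) and 0.73 (0.0439). The median of the list was -0.02, the same as that of all genes.

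The genes most like each of the 6 in their levels across the 12 libraries differed from one to the next. Likeness is Pearson's r of log2 levels, a description over 12 libraries of 6 mice that share mouse and fraction. Pparg was closest to Sema5b (0.962), Ermp1 (0.949) and Fam126a (0.948), and Cd36 to Tpm2 (0.907), Lgals1 (0.902) and Agps (0.894). Mogat1 was closest to Chpt1 (0.927), Slc13a3 (0.916) and Gm13872 (0.912), and Vldlr to Slc16a7 (0.978), Gm20528 (0.97) and Ugt1a2 (0.957). Fabp4 was closest to Dab2 (0.971), Fgd5 (0.97) and Adam23 (0.964), and Lpl to Sptlc2 (0.938), Tspan7 (0.935) and Rapgef5 (0.924). No gene was among the closest 3 of more than 1 of the 6. Only 3 of 10516 or 10517 genes compared were kept for each, so this cannot show whether the 6 share a pattern.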

How the data were processed

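Libraries of polyA RNA were made from hepatocyte fractions, per the labels' protocols. The build mm9 is named, per the submitters' processing notes, while 99.6% of the gene IDs match GENCODE M21 (GRCm38), so no gene coordinates are printed, and the promoter windows come from RefSeq on GRCm38.p6. Aligner, counter and strandedness are not given in the sources used here. The deposited values are a score: gene read counts that the authors scaled to 20 M per library and rounded up to whole numbers, as read from the values, since each of the 12 columns sums to 20.01 M. Depth was estimated from the pattern of low values, a step tested on simulated data of 6 libraries with an error of at most 0.082%. Since the values are scaled, no count model was used.

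Values were rescaled by the trimmed mean of M values (TMM, which assumes that most genes do not change) and taken as log2(value + 2), which understates the change of low genes. Genes at 10 or more in at least 3 libraries were tested, 16563 in all, with limma 3.58.1 in R 4.3.3 over all 12 libraries, with an intensity trend. A gene was called at a Benjamini-Hochberg adjusted p under 0.05 over all genes tested. Genotypes were compared by group means. Fractions and the interaction were compared with a term for each mouse, because the labels give both libraries of a mouse its name. Deviations of these pairs correlated at 0.498, 0.469 and 0.582 in WT and 0.0443, -0.00869 and 0.46 in KO. The KO against WT replicate numbers are different mice. Their correlations were 0.251, 0.396 and 0.296 in low-fat and 0.49, -0.171 and 0.381 in high-fat libraries. The main fit did not pair them, and an alternative fit over all 12 libraries had a term for each replicate number. Nothing in the labels gives a sequencing batch. Replicates are different mice, and the libraries of 1 mouse were never treated as replicates.

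The fit was tested on simulated data. Of genes changed by a log2 of 0.5 between genotypes, it recovered 7.5% in low-fat and 13.4% in high-fat libraries. At a log2 change of 1 it recovered 50.7% and 53.7%, and it called 13 and 10 unchanged genes. Between fractions over the 6 mice it recovered 49.3% and 73.1% at these sizes, with 6 false calls. Exact tests permuted mice or flipped the sign of within-mouse differences. Length is the union of annotated exons. The 6 genes, the gene lists and the marker lists were chosen with earlier results of these data known. Named beside the 6 genes are Ptprk, the 3 genes most like each one among those whose mean level reached 100 reads per 20 M, up to 3 called genes a list and direction, 10 pathway genes set in advance of the fits, and of the marker lists the genes at 0 and the most abundant one; Pdk4 and Cidec were added after their values were seen. The result of 1 of the 10 pathway genes is not reported here. Alternatives changed the pseudocount, the filter, the scaling, the pairing and the libraries in the fit.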

Additional observations from a re-analysis of the deposited data

How the results depend on the processing

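Over all alternatives run, the 6 genes kept a positive log2 fold change between fractions in WT, in KO and over the 6 mice. The call did not always hold. Over the 6 mice 5 genes were called, 2 without the replicate block (no term for each mouse) 3 to 6 with 1 mouse left out, 4 with no filter (without Mogat1, adjusted p = 0.0803) and 6 with the deposited scaling (Vldlr at 0.0493); the genes called in the whole table went from 1819 to 956 without the block and to 544 to 2702 with 1 mouse left out. With the deposited scaling alone the split of 1119 higher and 700 lower became 1179 and 342. In KO 3 genes were called, 0 without the replicate block, with an estimated same-mouse correlation or with only the libraries compared, and 0 to 1 with 1 mouse left out; the table's 282 calls became 139, 544 and 0 in those 3 fits, 182 with no filter and 0 to 145 with 1 mouse left out. In WT 0 genes were called, 1 with a pseudocount of 10 or the estimated correlation, 2 with the deposited scaling or without both replicate 1 mice, 4 with only the libraries compared and 0 to 4 with 1 mouse left out; the table's count of 0 became 172, 409, 173, 406, 1123 and 0 to 1493. The causes were not tested, and the smaller fits have fewer residual degrees of freedom.

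Between genotypes no alternative called any of the 6 genes, the replicate block included (0 called in either fraction, pairing by replicate number, with 537 genes at an unadjusted p under 0.05 in low-fat libraries in place of 285). With 1 library left out, the low-fat log2 fold change ran from -0.96 to 0.0255 for Pparg and from -1.16 to 0.29 for Vldlr, and the high-fat one from -0.82 to 1.14 for Vldlr and from -0.87 to 0.29 for Lpl. Vldlr in high-fat libraries was at 0.0387 with a pseudocount of 10 and at 0.0160 with no filter. The interaction with 1 mouse left out ran from -0.25 to 0.26 for Pparg, -0.18 to 0.11 for Cd36, -0.44 to 0.18 for Mogat1, -1.07 to 0.0324 for Fabp4 -0.13 to 0.63 for Lpl and 0.16 to 0.86 for Vldlr (adjusted p of at least 0.5653), and that of Mogat1 was 0.18 without both replicate 1 mice. With 3 mice a group, exact tests between genotypes cannot go below 0.1. Depth limits the lowest values, such as 14 for Mogat1 and Fabp4 and 15 for Vldlr, which lie nearest to the floor of 3 reads.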
